A study of Mus musculus with 6 samples.

Results

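The transcripts described here encode the nascent polypeptide-associated complex (NAC) and the DNA-dependent protein kinase (DNA-PK). They are 7 mouse genes of 22180 measured: Naca, Nacad, Btf3 and Btf3l4 on the NAC side, and Prkdc, Xrcc5 and Xrcc6 on the DNA-PK side. A gene was taken where the platform annotation gave its symbol alone for a probe set, and each of the 7 had exactly 1 such probe set. Membership goes by symbol alone.

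The arrays came from MC3T3-E1, an established pre-osteoblast line derived from the mouse skull vault that lays down mineralised matrix in culture. Both groups were differentiated from confluence for 14 days, with ascorbic acid at 50 µg/ml and β-glycerophosphate at 10 mM as the supplements. In 3 samples the medium also held 1 µM NU7441, an inhibitor of the catalytic subunit of DNA-PK, and in the other 3 it held the solvent, DMSO. All cells were of this 1 line, with no genetic change named in the labels, and each sample was hybridised to its own Affymetrix array. Whether replicates were separate cultures is not stated in the labels, and every p-value below therefore rests on a spread between samples that could be technical.

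NAC is a heterodimer of an alpha and a beta subunit that sits on the ribosome by the exit of the peptide tunnel, where it meets the growing chain and affects which chains are targeted to the endoplasmic reticulum. In osteoblasts the alpha subunit, alphaNAC, is also found in the nucleus, where it acts as a coactivator of the AP-1 subunit Jun on the osteocalcin gene. DNA-PK consists of the Ku heterodimer, which slides onto the ends of broken DNA, and a large catalytic subunit that Ku recruits there for repair by non-homologous end joining. The series concerns phosphorylation of alphaNAC by that catalytic subunit, and setting NU7441 beside DMSO asks how transcripts differ when the kinase is blocked. NU7441 binds the kinase itself, so the Prkdc transcript is no check of the inhibition.

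None of the 7 transcripts passed the test for a difference between NU7441 and DMSO. In limma, at a Benjamini-Hochberg adjusted p under 0.05 across the whole table, 0 of the 7 passed, as did 0% of the 22180 genes. At an unadjusted p under 0.05 there were 0 of the 7, against 6.79% of all genes. The differences of the 7 ran from -0.18 for Xrcc5 to 0.11 for Btf3 on the log2 scale, with a median of 0.020, and those of all genes had a median of 0.0036. For all 7 the 95% interval of the difference lay inside a 1.5-fold change either way, as it did for 92.5% of all genes. Every value of these genes, from 6.998 to 12.08, was above the arrays' median signal of 6.38 to 6.42. Signal over background was not analysed here, and an interval bounds the change in array signal.

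Naca encodes alphaNAC. Its log2 signal was 12.01, 12.08 and 11.99 in the NU7441 samples numbered 1 to 3, against 12.01, 12.05 and 11.96 in the DMSO samples. The groups overlapped, and in both of them the sample numbered 2 was the highest and the one numbered 3 the lowest. The means were 12.03 ± 0.04 with NU7441 and 12.01 ± 0.05 with DMSO (SD, n = 3 each), a difference of 0.020 (SE 0.064, limma adjusted p = 0.963). The 95% interval reached from a signal 1.09-fold lower to one 1.13-fold higher. Within the same-numbered pairs the differences were -0.0049, 0.029 and 0.037, and the mean difference was below 0 without NU7441 2 or without DMSO 3. The same gene also gives rise to a longer muscle form of the protein, skNAC, and 1 probe set does not separate the forms.

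Btf3 encodes the beta subunit that pairs with alphaNAC. It was at 8.28, 8.33 and 8.35 in the NU7441 samples, against 8.15, 8.27 and 8.22 in the DMSO samples. All 3 NU7441 values lay above all 3 DMSO values, which makes Btf3 the only one of the 7 whose groups did not overlap in the deposited values. Such separation upward was found in 6.13% of all genes, and separation downward, seen in 0 of the 7, in 6.64%. The means were 8.32 ± 0.03 with NU7441 and 8.21 ± 0.06 with DMSO (SD, n = 3 each), a difference of 0.11 (SE 0.065) or 1.08-fold. This did not pass the test (limma adjusted p = 0.800), and the interval ran from 1.03-fold lower to 1.20-fold higher. The pair differences, 0.13, 0.064 and 0.13, were all above 0.

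Btf3l4, a close relative of Btf3, was at 9.372, 9.453 and 9.541 in the NU7441 samples, against 9.430, 9.467 and 9.302 in the DMSO samples. The highest value was in NU7441 3 and the lowest in DMSO 3, so the pair numbered 3 differed by 0.24 while those numbered 1 and 2 differed by -0.058 and -0.014. The mean difference of 0.056 (SE 0.078, limma adjusted p = 0.912) was thus carried by 1 pair, and without DMSO 3 it was 0.0070.

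Nacad encodes a large protein with a domain like that of alphaNAC. It was at 6.998, 7.108 and 7.230 in the NU7441 samples, against 7.175, 7.138 and 7.153 in the DMSO samples. The NU7441 samples spread to both sides of the DMSO samples, with an SD of 0.12 against 0.02 (n = 3 each). The pair differences were -0.18, -0.030 and 0.077, and the mean difference was -0.043 (SE 0.077, limma adjusted p = 0.934). Without NU7441 1 the sign turned.

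**Figure D1:**
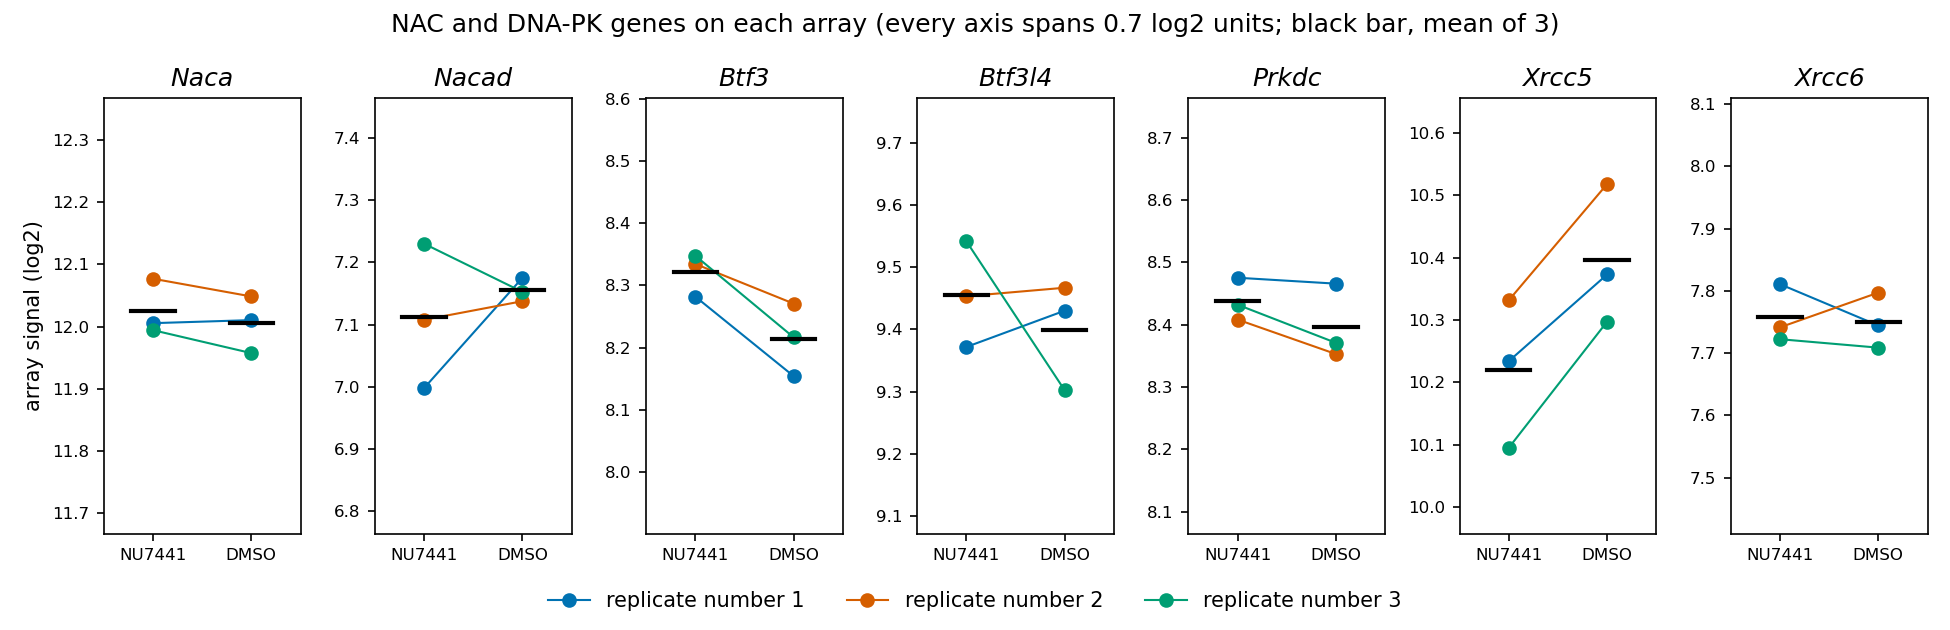
Log2 array signal of the 7 genes, with NU7441 on the left and DMSO on the right of each panel; points are arrays, coloured lines join the same replicate number and black bars are means of 3. Each vertical axis spans the same width, and only Btf3 has all its NU7441 points above all its DMSO points, while the lines of Xrcc5 all go up towards DMSO.

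Prkdc encodes the catalytic subunit of DNA-PK, the target of NU7441. It was at 8.48, 8.41 and 8.43 in the NU7441 samples, against 8.47, 8.35 and 8.37 in the DMSO samples. In both groups the sample numbered 1 was the highest, and the groups overlapped. The means were 8.44 ± 0.03 with NU7441 and 8.40 ± 0.06 with DMSO (SD, n = 3 each), a difference of 0.042 (SE 0.065, limma adjusted p = 0.920). The interval ran from 1.08-fold lower to 1.14-fold higher. The pair differences, 0.0095, 0.055 and 0.061, were all above 0 but small beside the interval. With 1 array left out the difference ran from 0.0202, without DMSO 2, to 0.0768, without DMSO 1.

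Xrcc5 encodes Ku80, the larger Ku subunit, whose C-terminal end contacts the catalytic subunit. It was at 10.234, 10.332 and 10.095 in the NU7441 samples, against 10.373, 10.518 and 10.297 in the DMSO samples. The order of the numbers was the same in both groups, with number 2 highest and number 3 lowest, and NU7441 2 overlapped the DMSO range. The means were 10.22 ± 0.12 with NU7441 and 10.40 ± 0.11 with DMSO (SD, n = 3 each), a difference of -0.18 (SE 0.091) or 0.885-fold. The difference did not pass (limma adjusted p = 0.768), and its interval ran from 1.31-fold lower to 1.03-fold higher, the widest of the 7. Its size shrank by more than 1.5 times when 1 array was left out, to -0.114 without NU7441 3 and to -0.115 without DMSO 2.

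Within the same-numbered pairs Xrcc5 differed by -0.14, -0.19 and -0.20. A transcript lower in all 3 pairs was found in 16.6% of all genes, and Xrcc5 was the only such gene among the 7. Btf3 and Prkdc were higher in all 3 pairs, as were 16.0% of all genes. With the replicate number as a block the SE of Xrcc5 was 0.060 and its unadjusted p in limma was 0.0323, the only one of the 7 under 0.05, against 9.37% of all genes. Its adjusted p with the block was 0.506, and 0 of the 7 passed, as did 0% of all genes. With the block, an intensity trend of the variance and a robust prior, 0.451% of all genes passed and again 0 of the 7, Xrcc5 being closest with an adjusted p of 0.182.

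Xrcc6 encodes Ku70, the partner of Ku80. It was at 7.81, 7.74 and 7.72 in the NU7441 samples, against 7.74, 7.80 and 7.71 in the DMSO samples. The groups overlapped almost fully, and the pair differences of 0.066, -0.056 and 0.014 had both signs. The mean difference of 0.0081 (SE 0.064, limma adjusted p = 0.984) was the smallest of the 7. Its interval ran from 1.10-fold lower to 1.12-fold higher, and its sign turned when each array was centred on its median.

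**Figure D2:**
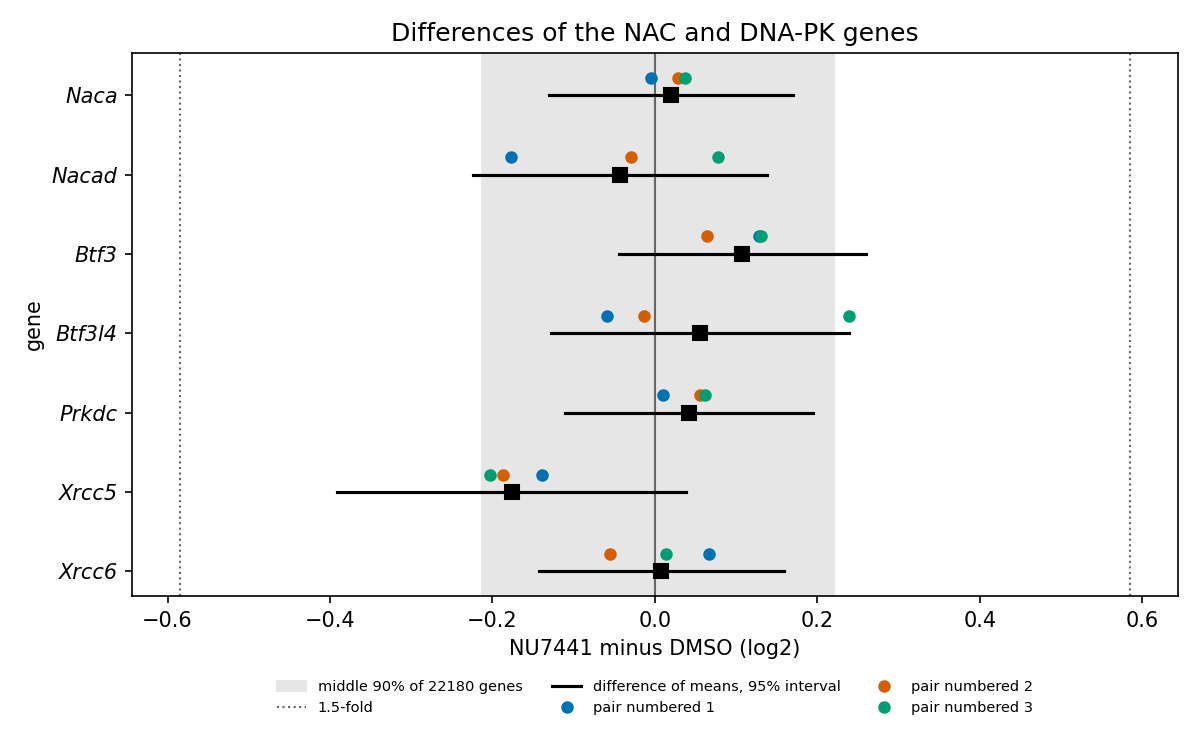
NU7441 minus DMSO on the log2 scale for the 7 genes; squares are differences of means with their 95% interval from limma, small points are the 3 same-numbered pairs, dotted lines mark 1.5-fold and the grey band holds the middle 90% of 22180 genes. The squares run from -0.18 for Xrcc5 to 0.11 for Btf3, all in the grey band. Every interval, from the fit with group alone and no pairing, spans 0 and stays inside the dotted lines.

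The replicates of most of these genes were close together. The pooled SD within groups had a median of 0.049 over the 7 and of 0.11 over all genes, in log2 units. It was 0.045 for Naca, 0.046 for Xrcc6, 0.048 for Btf3 and 0.049 for Prkdc. Xrcc5, at 0.12, was the most variable, ahead of Btf3l4 at 0.086 and Nacad at 0.083. The limma SE had a median of 0.065 over the 7 and 0.091 over all genes.

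Because the subunits work together, the log2 ratio of a subunit to another of its complex was taken within each array and compared between groups, in 4 comparisons. The difference of Btf3 exceeded that of Naca by 0.087, with pair values of 0.13, 0.035 and 0.094 (exact permutation test over arrays, two-sided, p = 0.2, adjusted p = 0.267). That of Xrcc5 was below that of Xrcc6 by 0.18, the value being -0.21, -0.13 and -0.22 in the 3 pairs (exact permutation p = 0.2, adjusted p = 0.267). Against Prkdc the value of Xrcc5 was -0.22, with -0.15, -0.24 and -0.26 in the pairs (exact permutation p = 0.2, adjusted p = 0.267). Xrcc6 against Prkdc gave -0.034 (exact permutation p = 0.7, adjusted p = 0.7). With 3 arrays against 3 this test, which does not use the pairs, cannot give a p below 0.1, so it could not reach the threshold and settles nothing about equal or unequal change.

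**Figure D3:**
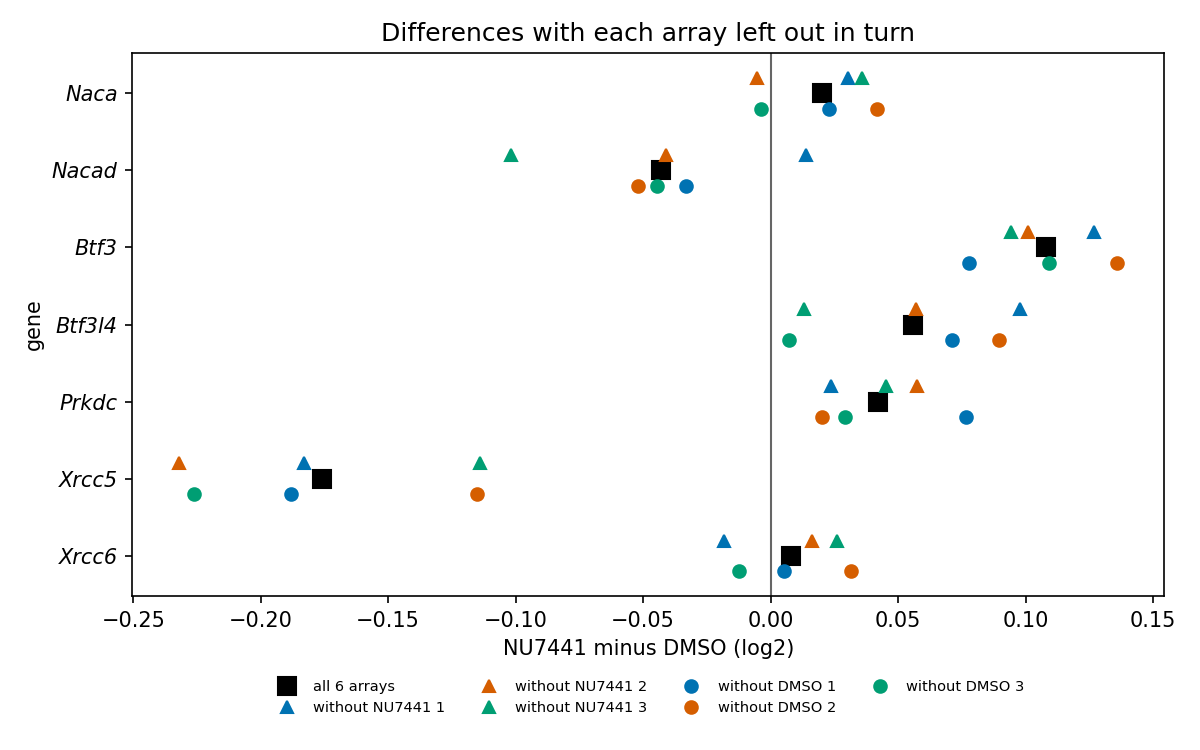
NU7441 minus DMSO on the log2 scale for the 7 genes, with all 6 arrays (squares) and with an NU7441 array (triangles) or a DMSO array (circles) left out. Xrcc5 stays between -0.23 and -0.11 and Btf3 between 0.078 and 0.14, while Naca, Nacad and Xrcc6 have points on both sides of 0.

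Other factors that act on nascent chains had mostly negative differences, and 0 of 21 measured passed. This list held genes of the signal recognition particle, the Sec61 channel, N-terminal acetyltransferases, methionine aminopeptidases, N-myristoyltransferases and the ribosome-bound chaperone pair Dnajc2 and Hspa14. The 4 listed genes not measured were Naa10, Hypk, Srp54a and Srpra. Of the 21, 15 were lower and 6 higher with NU7441, where 51.3% of all genes were higher, with a median difference of -0.058 beside 0.0036 for all genes. The list was bright, with a median level of 10.2. The median difference of the upper 50% of genes by level was -0.019, but these genes were not matched to the list in level. The part of signal level in the differences of the list was not tested. At an unadjusted p under 0.05 there were 3 lower, where 3.30% of all genes were, and 0 higher, where 3.49% were. In 10 of the 21 all 3 pairs were lower, against 16.6% of all genes, and in 1 all 3 were higher, against 16.0%.

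Naa25, the auxiliary subunit of the acetyltransferase NatB, was at 9.331, 9.506 and 9.562 in the NU7441 samples, against 9.564, 9.901 and 9.819 in the DMSO samples. Its groups lay next to each other without overlapping, and the difference was -0.30 (SE 0.11, limma adjusted p = 0.711). Nmt1, an N-myristoyltransferase, differed by -0.18 (SE 0.067, limma adjusted p = 0.711). Sec61g, the gamma subunit of the Sec61 channel, differed by -0.19 (SE 0.080, limma adjusted p = 0.733). Both also had every NU7441 value below every DMSO value. Of the 21, 3 were apart downward, against 6.64% of all genes, and 1, Sec62, was apart upward, against 6.13%. These 3 were named for having the smallest p of the list, which favours genes with separated groups.

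The remaining factors of non-homologous end joining did not pass either, with 0 of 11 measured in each direction. Of these 9 were lower and 2 higher with NU7441, and the median difference was -0.034. Xrcc4, the scaffold of DNA ligase IV, had the smallest p of the list, at 6.79, 6.89 and 6.73 in the NU7441 samples, against 6.84, 6.97 and 6.92 in the DMSO samples. It differed by -0.11 (SE 0.074, limma adjusted p = 0.824). The DNA polymerases Poll and Polm differed by 0.066 (SE 0.073) and -0.11 (SE 0.15), and 0 of the 11 had groups that did not overlap, where 6.13% of all genes were apart upward and 6.64% downward.

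Kinases of the same family as the catalytic subunit, such as Atm, Atr, Mtor, Smg1 and its pseudokinase relative Trrap, were listed with the factors that assemble them. Of 13 measured, 9 were lower and 4 higher with NU7441, 0 passed and 0 had an unadjusted p under 0.05, against 6.79% of all genes. All 13 differences lay between -0.097 and 0.022, with a median of -0.019, beside -0.019 for the upper 50% of genes by level. The ends of that range belonged to Pih1d1, a component of the R2TP co-chaperone complex, and to Trrap. Atr, the checkpoint kinase, differed by -0.069 (SE 0.066) and Telo2, which stabilises the kinases of this family, by -0.066 (SE 0.067).

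Kinases, a phosphatase and partners known to act with alphaNAC formed the last list, of which 9 were measured, while Ilk and Csnk2b were not. Again 0 passed, 6 were lower and 3 higher with NU7441, and the median difference was -0.023. The kinase genes Gsk3b, Csnk2a1, Csnk2a2 and Prkaca all lay between -0.081 and -0.017. Jun, which alphaNAC coactivates, was at 9.925, 9.694 and 9.749 in the NU7441 samples, against 10.297, 10.305 and 10.107 in the DMSO samples. Its groups did not overlap, and the pair differences were -0.37, -0.61 and -0.36 (limma adjusted p = 0.598, and 0.0291 when block, variance trend and robust prior were combined). Jun was the only one of the 9 to pass under that setting, where 0.451% of all genes passed.

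Bglap, the osteocalcin gene on which Jun and alphaNAC act, was at 7.31, 7.48 and 8.17 in the NU7441 samples, against 6.36, 7.19 and 7.49 in the DMSO samples. The groups overlapped, while the pair differences were 0.95, 0.29 and 0.68 (limma adjusted p = 0.768). Txlng, whose product is also known as FIAT and restrains the osteoblast factor ATF4, differed by 0.21 (SE 0.12, limma adjusted p = 0.789), with a negative value, -0.17, in the pair numbered 1.

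**Figure D4:**
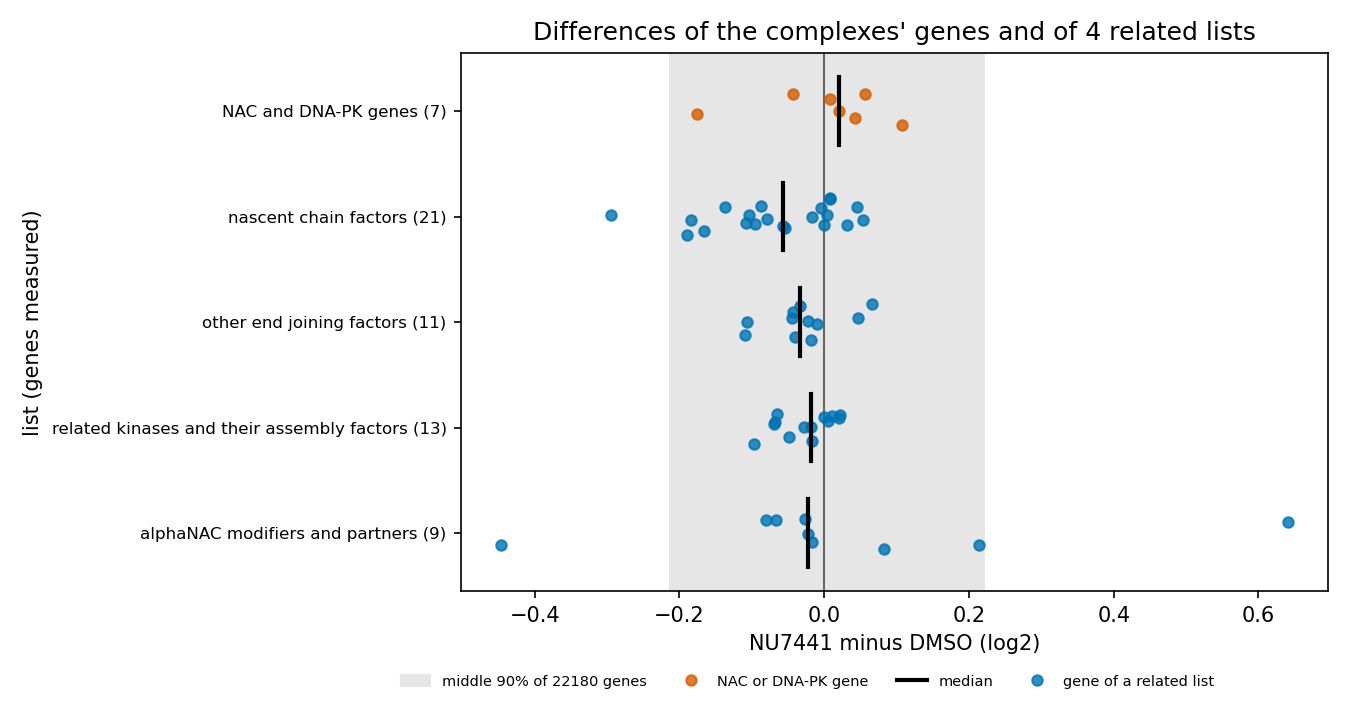
NU7441 minus DMSO on the log2 scale for each measured gene of the 2 complexes (orange) and of 4 related lists (blue); black bars are medians, the grey band holds the middle 90% of 22180 genes, and vertical scatter within a row has no meaning. Medians run from -0.058 for the nascent chain factors to 0.020 for the 7 genes, and the points far outside the band are Bglap at 0.64 and Jun at -0.45.

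The 2 genes whose signal ran most like that of each of the 7 over the 6 arrays were named by Pearson's r, from 14568 genes above the lower quartile of level. For Btf3 they were Rogdi (r = 0.997) and Rpl23a (r = 0.996), with differences of 0.18 and 0.14, and Rpl23a encodes a protein of the large ribosomal subunit. For Xrcc5 they were Dcc and Nfkbil1 (r = 0.996 and 0.995), with differences of -0.12 and -0.16. Naca ran most like Tnfrsf14 and Cdk7 (r = 0.987 and 0.974), and Prkdc most like Timp2 and Sp6 (r = 0.995 and 0.992). Nacad ran most like Zfp105 and Fmr1, Btf3l4 most like Ndrg4 and Thap11, and Xrcc6 most like Sv2c and Mettl18, with r between 0.984 and 0.994. These are the highest of 14568 values over 6 points that share their arrays, and between 17 and 113 genes exceeded r = 0.95 for each of the 7.

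Markers of the labelled cell type were present: 9 of 11 osteoblast markers were measured, with mean signals of 7.66 to 13.5 with NU7441 and 7.02 to 13.5 with DMSO. All 9 were higher with NU7441, with a median difference of 0.52 beside 0.0036 for all genes, and 8 of the 9 were higher in all 3 pairs, against 16.0% of all genes. The differences were uneven: Col1a1, Col1a2 and Sparc differed by only 0.044, 0.038 and 0.028, and the others by 0.28 to 0.81. The median deviation of the list had a pooled SD of 0.31 between arrays of a group. In limma 0 of the 9 passed, and 4 did with block, variance trend and robust prior combined, against 0.451% of all genes: Pth1r, Ibsp, Alpl and Sp7. The summed signal of the 9 was 15.21 to 15.46 with NU7441 and 15.08 to 15.29 with DMSO (log2). Of the 9, the collagen genes Col1a1 and Col1a2 were the brightest. The 11 skeletal muscle markers, of interest because of skNAC, had mean signals of 4.72 to 7.42 with NU7441 and 4.42 to 7.40 with DMSO, and 8 were higher. Their summed signal was 10.02 to 10.07 with NU7441 and 9.918 to 10.07 with DMSO. Of 8 macrophage markers the brightest, Cd68, averaged 7.69 with NU7441 and 7.92 with DMSO, and the 8 summed to 9.377 to 9.459 with NU7441 and 9.394 to 9.601 with DMSO. The 7 endothelial markers summed to 8.407 to 8.592 with NU7441 and 8.484 to 8.58 with DMSO. The 6 adipocyte markers summed to 8.135 to 8.365 with NU7441 and 8.331 to 8.389 with DMSO. Of these 4 were higher with NU7441 and 2 lower, with a median difference of 0.046. Fabp4, unlike the list as a whole, was at 4.57, 5.04 and 5.00 with NU7441 against 5.65, 6.23 and 5.72 with DMSO (limma adjusted p = 0.598, and 0.0211 with block, variance trend and robust prior combined). Its NU7441 values lay below the arrays' lower quartile of 5.11 to 5.16. The part of these markers in the differences of the 7 genes was not tested. In bulk RNA fewer cells of a type and less RNA per cell cannot be told apart.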

How the data were processed

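Total RNA of whole MC3T3-E1 cells was biotin-labelled and hybridised to 6 Affymetrix arrays, per the labels' protocols. Each probe set has 1 deposited log2 value an array. The log2 scale was read from the range, and how background, summarisation and normalization were handled is not given in the sources used here. Of 41345 probe sets 23521 had 1 gene symbol in the platform annotation, 1814 several and 16010 none here. The brightest probe set per gene left 22180 genes. Two-sided tests of all genes, unfiltered by level and with group alone in the model, used limma 3.58.1 (R 4.3.3). All named lists and the 7 genes were chosen with earlier results of these data known. All 7 genes were named, up to 3 per related list by smallest p, and further genes where their values mark an extreme, a group of related genes or a marker, chosen after their values were seen. The search for genes of like pattern left out predicted genes, small RNAs and olfactory, vomeronasal and immunoglobulin genes.

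Deviations from group means correlated over genes at 0.149 to 0.339 for the same replicate number and at -0.246 to 0.0938 otherwise, all 3 same-numbered values exceeding 0.1. Samples of the same number were therefore described as pairs, from the data and not from a label. NU7441 1 was barely told apart, at 0.149 with DMSO 1 and 0.0938 with DMSO 2. The p-values of the fits with the replicate block rest on this pairing, which no label states. The main limma fit did not use the pairs, which entered only the pair differences and the fits with the replicate block. On simulated data with 200 of 22180 genes changed, limma recovered 54.4% of changes of 0.5 and 97.4% of changes of 1 (log2). The simulated noise was independent between arrays, without the shared deviations of same-numbered samples, and the rates depend on how many genes were changed. They therefore do not give the share of changes found in the real data. The precision is limited by the number of arrays. Alternatives were the block, a variance trend, quantile normalization, median centring, level filters, averaged probe sets, array weights and each array left out. Near-identical copies of these genes, and list members without a probe set of their own, were not analysed here. Figures used matplotlib 3.10.9.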

Additional observations from a re-analysis of the deposited data

How the results depend on the processing

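Over 15 alternatives, 0 of the 105 recomputed differences of the 7 genes passed an adjusted p under 0.05 in limma, the adjusted p lying between 0.182 and 0.996, and 99 kept their sign. The 6 that turned were all of small differences. The block, variance trend, level filters and averaged probe sets leave these differences unchanged by construction. Only the normalizations, array weights and left-out arrays could turn a sign. With an array left out, Naca ran from -0.0055 to 0.0417, Nacad from -0.102 to 0.0137 and Xrcc6 from -0.0182 to 0.0316. Xrcc6 was at -0.00923 with median centring. The change of Xrcc6 less that of Prkdc ran from -0.0716 to 0.0114 with an array left out, turning without DMSO 2. Btf3, Btf3l4, Prkdc and Xrcc5 kept their sign in all 15. The count of genes called, 0 in limma with 1506 at an unadjusted p under 0.05, was 100 with the replicate block, an intensity trend and a robust prior, 0 of them among the 7, and 0 under the other 14 alternatives. The cause was not tested. The replicate block alone changed no call. The 60 recomputed list medians moved by less than the spread between arrays, but small ones turned sign: the related kinases' was 0.00782 with quantile normalization and 0.00606 at most with an array left out, and that of the alphaNAC partners 0.00971 and 0.00204. The nascent chain median ran from -0.0911, without DMSO 1, to -0.0414 with an array left out. The genes' signal over background is unknown.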
